A study of Rattus norvegicus with 12 samples.

Results

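The comparison described here sets 3 anterior cingulate cortex arrays of TsA-treated rats against 3 of vehicle-treated rats, 6 of the 12 arrays of the series, chosen by the structure and treatment in their titles. All 31042 probe sets other than controls, of 31099 on the Affymetrix rat array, were compared. Both groups were male Wistar rats that had taken cocaine themselves by nose-poking (0.3 mg/kg in 40 µl per intravenous injection, 2 h a day for 4 days), and both were killed with pentobarbital 2 h after the last session. The labels of the TsA group and the vehicle group differ in the treatment, and cocaine exposure was shared by both. Each array carried biotin-labelled cRNA from 6 µg of total RNA of tissue pooled from 2 rats, so the 3 arrays of a group are 3 pools and p-values measure the spread between pools. The age of the rats and the dose, route and timing of TsA are not given in the sources used here, and no cocaine-free group was analysed here.

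TsA is the usual abbreviation of trichostatin A, although the labels do not spell it out. Trichostatin A blocks the zinc-dependent histone deacetylases of classes I, II and IV, but not the sirtuins, which use NAD. Acetyl groups on histone tails, written by acetyltransferases and removed by deacetylases, loosen chromatin and accompany active transcription. The anterior cingulate cortex is a medial prefrontal area that receives dopamine input and takes part in drug seeking and in valuing actions. Histone acetylation itself was not measured here.

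Values are array signals on a linear scale, and differences are TsA minus vehicle on log2(signal + 16), which understates the change of dim genes. The tissue showed the markers of cortex. Slc17a7, the vesicular glutamate transporter of cortical projection neurons, read 1079, 1432 and 1265 on the TsA arrays, against 983, 1259 and 1379.6 on the vehicle arrays. Neurod6, a transcription factor of the same neurons, read 466, 447 and 477 in TsA, against 514, 375 and 359 in vehicle. Of 10 striatal markers, Gpr6, a receptor gene of striatal neurons, was near 0 at 1.79 to 2.31 over the 6 arrays, and the adenosine receptor gene Adora2a was dim at 15.8 to 25.8. The brightest were Penk, an opioid peptide gene also used in cortex, at 280.2 to 371, and Ppp1r1b, a dopamine signalling gene, at 213 to 299.97. Summed over the list, the signal was 966 to 1032 in TsA and 972 to 1075 in vehicle, so the groups overlapped and the list as a whole was not at background.

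Vehicle array 2 stood apart from the rest. The first principal component of the 6 arrays held 60.3% of the variance, with scores of -17.6, 3.91 and -18.6 for the TsA arrays and -14.7, 34.5 and 12.5 for the vehicle arrays. By sign this axis split the arrays across treatment, with vehicle array 1 beside TsA arrays 1 and 3. Vehicle array 1 correlated with those TsA arrays at 0.991 each, and with vehicle arrays 2 and 3 at 0.967 and 0.983. The median SD of log2 signal between arrays was 0.111 in the TsA group and 0.146 in the vehicle group. Ratios of 3' to 5' control probe sets, a gauge of RNA integrity, overlapped between the groups: 1.178 to 1.221 in TsA against 1.162 to 1.201 in vehicle for GAPDH, and 2.08 to 2.32 in TsA against 2.01 to 2.31 in vehicle for beta-actin. Wash batch was unevenly spread, since TsA arrays 2 and 3 were washed apart from the other 4 cortex arrays. Treatment can be set against vehicle within a batch only as TsA array 1 against the 3 vehicle arrays, and that value is given below as the difference within the batch. For a gene whose groups do not overlap, that value keeps its sign by construction, so its sign is no check.

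No gene passed the test across the whole array. Limma's fit over the 6 arrays called 0 of 31042 probe sets (0%), with 1687 at an unadjusted p under 0.05, a smallest adjusted p of 0.753 and a largest difference of 2.05 in size. Every gene named below therefore has a limma adjusted p of 0.753 or above, with 3 arrays per group, and its values are a description. For a single gene, an exact permutation test of 3 against 3 arrays cannot go below p = 0.1. As a description of separation, all 3 TsA arrays lay above all 3 vehicle arrays in 1262 probe sets (4.07%) and below them in 2197 (7.08%). With the brightest probe set taken for each of 14217 genes, the TsA arrays were all higher in 523 genes (3.68%) and all lower in 1276 (8.98%), and the TsA mean was the lower one in 8385 genes (59%). Among the 10466 genes above the lowest 40% of signals, these shares were 3.54% higher and 10.2% lower.

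The deacetylases themselves showed small differences. Of the class I genes, whose enzymes are nuclear and the main targets of trichostatin A, Hdac1 read 91.3, 81.9 and 81.3 in TsA, against 77.4, 80.7 and 71.9 in vehicle. The groups did not overlap, with TsA higher by 0.12 ± 0.10 (SE), and a second Hdac1 probe set was higher by 0.19 with overlap. Hdac2, the brightest class I gene, read 581, 566 and 549 on the TsA arrays, against 535, 557 and 526 on the vehicle arrays, with overlapping groups and a difference of 0.07. Hdac3, the catalytic subunit of the NCoR corepressor complex, stood at -0.13 and Hdac8 at -0.18, both with overlap. Of the 6 genes of classes II and IV, 5 (83.3%) had the lower mean in TsA, beside 59% of all genes. Their median was -0.14, beside -0.03 over all genes measured. The list median was -0.08 without TsA array 1, -0.24 without vehicle array 1 and -0.23 within the batch. The class IV gene Hdac11, which is abundant in brain, read 426, 478 and 410.02 in TsA, against 486, 568 and 492 in vehicle. It was the only non-overlapping gene of classes II and IV, lower in TsA with a difference of -0.23 ± 0.09 (SE), and of -0.26 within the batch. Hdac5, a class IIa enzyme that leaves the nucleus on neuronal activity and has been tied to cocaine reward, was at -0.16, and Hdac6, the cytoplasmic tubulin deacetylase, at -0.20.

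**Figure D1:**
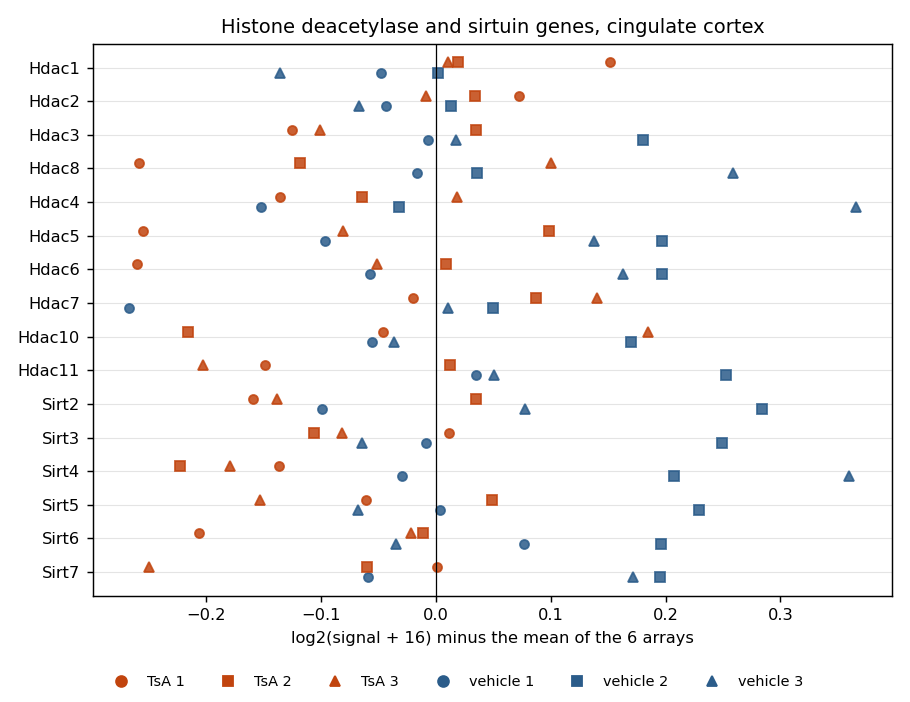
Each row is a deacetylase or sirtuin gene and each point an array, placed by its log2(signal + 16) minus the mean of the 6 arrays. TsA arrays (orange) lie above the vehicle arrays (blue) within each row, and marker shape gives the replicate. The points of the groups interleave in most rows, and they separate in Hdac1, Hdac11 and Sirt4 alone.

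All 6 sirtuin genes measured had lower means in TsA, beside 59% of all genes, with a median of -0.17. They were highest on vehicle array 2, the array that stood apart. Their median level on vehicle array 2 was 0.22 above the 6-array mean, against -0.02 and 0.02 on vehicle arrays 1 and 3 and -0.10, -0.04 and -0.15 on the TsA arrays. Without vehicle array 2 the median was -0.09 and all 6 genes stayed below 0, and within the batch the median was -0.18. The part of vehicle array 2 in the sirtuin differences was not tested. Sirt4, a mitochondrial sirtuin, was the non-overlapping member: it read 14.9, 13.1 and 14.0 in TsA, against 17.3, 23.2 and 27.6 in vehicle, a dim gene with a difference of -0.36 ± 0.13 (SE), and of -0.05 at a dimmer second probe set.

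Acetyltransferase genes were split, 5 of 12 with the lower mean in TsA and a median of 0.03. The sign of this median is not settled: it was -0.08 within the batch (7 of 12 below 0), -0.03 without TsA array 2 and -0.01 without vehicle array 1. Ep300, which encodes the coactivator p300, read 247, 289 and 242 on the TsA arrays, against 296, 309 and 330.1 on the vehicle arrays. TsA was the lower group there without overlap (difference -0.25 ± 0.09, SE). A second Ep300 probe set, dim at a mean signal of 7.98, was higher in TsA without overlap (0.17), so the gene has no settled direction. Crebbp, the close relative of p300 that binds CREB, was at -0.15 with overlap (0.17, 0.11 and 0.01 at dimmer probe sets), and Kat5 (Tip60) read 235, 236 and 221 in TsA, against 245, 273 and 248 in vehicle, at -0.13 without overlap. Ncoa1, a steroid receptor coactivator, was the member with all TsA arrays higher, at 635, 665 and 623 in TsA, against 582, 582 and 613 in vehicle. The widest differences of this list, in Clock (0.42) and Hat1 (0.36), came from genes that were low on vehicle arrays 2 and 3 and TsA array 2: Clock read 120.03, 87.2 and 134 on the TsA arrays, against 137, 47.3 and 73.9 on the vehicle arrays.

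Genes commonly induced in cells by deacetylase inhibitors did not separate the groups. Of 11 measured, 8 had the lower mean in TsA, 0 were non-overlapping and the median was -0.03, the same as over all genes. Cdkn1a, the p21 cell cycle inhibitor and the classic target, read 110.4, 124 and 138 in TsA, against 110.1, 148 and 124 in vehicle. Gsn, the actin-severing protein gelsolin, read 229, 267 and 266 in TsA, against 227, 263 and 235 in vehicle, and Hspa2, a chaperone, read 92.7, 92.7 and 81.8 on the TsA arrays, against 61.3, 91.6 and 76.0 on the vehicle arrays. In each of these 3 the groups overlapped. The largest difference was in Gadd45b, a stress gene linked to DNA demethylation, at -0.22 ± 0.13 (SE), with 88.8, 79.6 and 77.3 in TsA, against 90.1, 118 and 87.7 in vehicle. Histone genes had a median of -0.04 over 8 members, and H2aj, a replication-independent H2A variant, was the non-overlapping one, at 98.3, 122 and 123 in TsA, against 141, 170.1 and 148 in vehicle (difference -0.37 ± 0.12, SE). Genes of DNA methylation and demethylation had a median of -0.08, with 11 of 15 (73.3%) lower in TsA, beside 59% of all genes. Among them Dnmt1, the maintenance methyltransferase, was at -0.19, and Tet1, an enzyme that oxidises methylcytosine, at 0.29, both with overlap. Mbd3, of the methyl-CpG binding domain family and part of the NuRD deacetylase complex, was at -0.17, also with overlap. Gadd45g, of the same family as Gadd45b, was the non-overlapping one, by a small difference (-0.08).

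The genes with the smallest unadjusted p among non-overlapping ones of at least 0.4 in size were taken to describe the widest separations in the cortex. There were 55 such genes higher and 39 lower in TsA, and the 15 leading ones in each direction were taken. Since they were picked from these arrays for being separated, their values are a description. In 14 of these 30 genes another probe set had the other sign or under 0.5 times or over 2 times the difference, and those values are given where the gene is named.

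**Figure D2:**
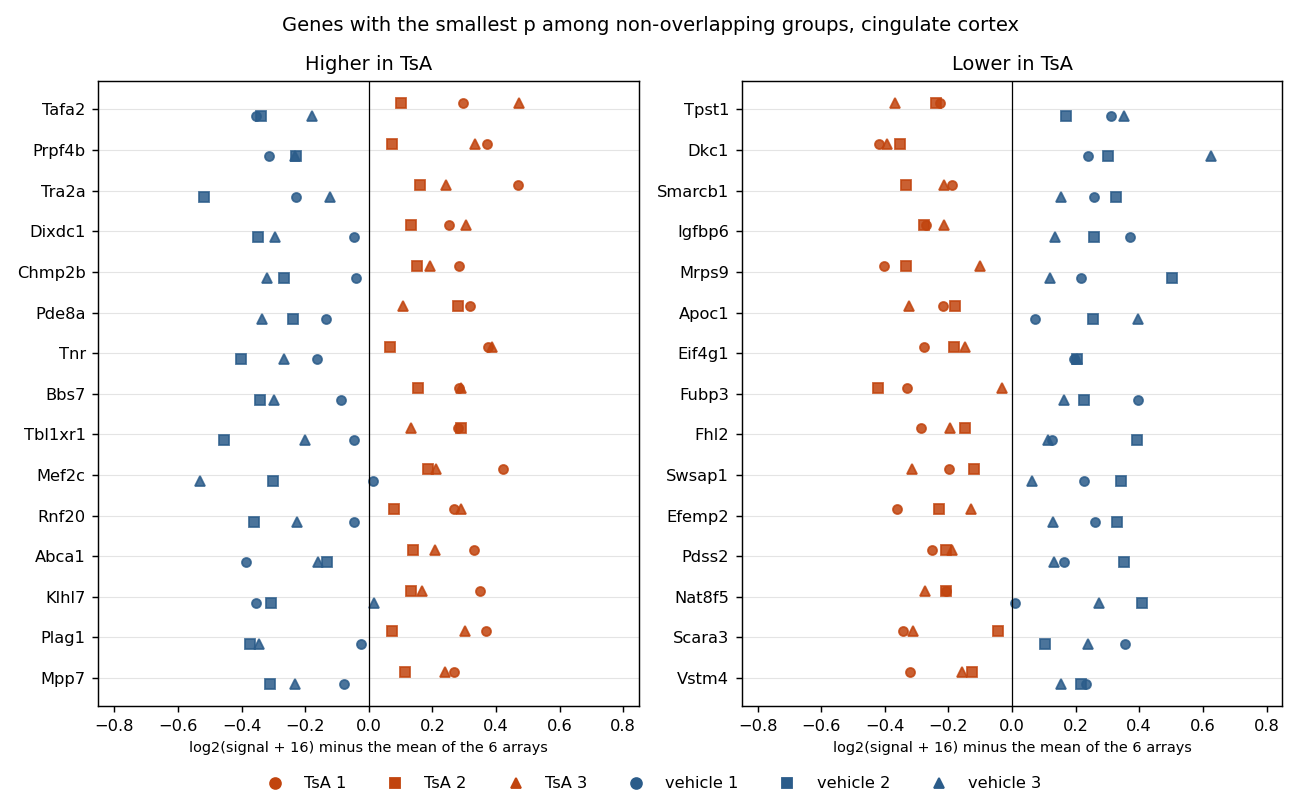
The 15 genes higher and the 15 lower in TsA with the smallest p are shown by row, each point an array placed by log2(signal + 16) minus the 6-array mean, with TsA (orange) drawn above vehicle (blue). By the way the genes were chosen no row overlaps. Dkc1 and Tpst1 have the widest gaps, and in several rows on the left TsA array 2 lies nearest to the vehicle arrays.

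Transcription and chromatin genes appeared on both sides. Mef2c, a transcription factor that restrains excitatory synapse number and is held in check by class IIa deacetylases, read 2256, 1916 and 1947 on the TsA arrays, against 1698, 1363 and 1160.01 on the vehicle arrays. TsA was higher by 0.54 ± 0.14 (SE), by 0.69 within the batch and by 0.17 at a second probe set, where the groups overlapped. Smarcb1, a core subunit of the SWI/SNF chromatin remodelling complexes, was lower at 177, 158 and 173 in TsA, against 246, 259 and 228 in vehicle, a difference of -0.49 ± 0.09 (SE) and of -0.43 within the batch. Rnf20, the ubiquitin ligase of histone H2B, read 157, 136 and 159.9 in TsA, against 123, 96.1 and 107 in vehicle (0.42). Tbl1xr1, a subunit of the NCoR and SMRT corepressors that carry Hdac3, was higher by 0.47, with 0.07, 0.03 and 0.14 at other probe sets. Plag1, a zinc finger transcription factor, stood at 0.50 from a dim signal of 18.04 to 25.8 in TsA and 8.99 to 15.9 in vehicle. Fhl2, a LIM-domain coactivator, was on the lower side at -0.42.

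RNA-handling genes were likewise on both sides. Dkc1, which encodes dyskerin, the pseudouridine synthase of H/ACA particles and of telomerase, showed the widest gap of these genes. It read 60.7, 64.3 and 62.2 on the TsA arrays, against 105, 110.3 and 142 on the vehicle arrays, so the TsA arrays lay close together and far below the lowest vehicle array. The difference was -0.78 ± 0.12 (SE), and -0.81 within the batch. Tra2a, a splicing activator, was higher at 184, 145 and 155 in TsA, against 107, 84.7 and 117 in vehicle (0.58 ± 0.13, SE), but a second probe set gave 0.04. Prpf4b, a kinase of the spliceosome, stood at 0.52 from a dim probe set, with 0.45, 0.42 and 0.09 at 3 others where the groups overlapped. Fubp3, a nucleic acid binding protein, stood at -0.52 but at 0.19 at another probe set. Mrps9 of the mitochondrial ribosome stood at -0.56 with 0.16 at another, and Eif4g1, the scaffold of translation initiation, at -0.40 with -0.09, -0.37 and 0.54 at others. These 3 genes have no settled direction across their probe sets.

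Secreted, matrix and membrane genes appeared on both sides. Tnr (tenascin-R), a glycoprotein of perineuronal nets and nodes, read 69.7, 53.3 and 70.6 in TsA, against 43.1, 34.1 and 39.0 in vehicle, higher in TsA by 0.55 ± 0.13 (SE). Igfbp6, which binds IGF2, was lower at 46.2, 46.0 and 48.6 on the TsA arrays, against 81.1, 73.7 and 66.3 on the vehicle arrays (-0.51 ± 0.11, SE), and its brighter probe set was lower too, without overlap (-0.32). Efemp2, a fibulin needed for elastic fibres, stood at -0.48 (-0.18 at a second probe set), Scara3, a scavenger receptor of oxidative stress, at -0.47, and Vstm4, an immunoglobulin-domain membrane protein, at -0.40. Igfbp6 belongs to the meningeal genes described below, whose level moved with 1 array, and their part in its difference was not tested.

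Lipid and membrane genes included Abca1, the pump that loads cholesterol onto apolipoproteins. Its 2 non-overlapping probe sets read 48.8, 40.7 and 43.5 in TsA, against 23.4, 31.0 and 30.1 in vehicle, and 135, 140.4 and 144 in TsA, against 104, 98.8 and 115 in vehicle. TsA was higher by 0.45 and 0.36 there, and by 0.06 and 0.11 at 2 dimmer ones. Apoc1, an apolipoprotein made by astrocytes, was lower at 60.3, 62.4 and 55.0 on the TsA arrays, against 77.4, 90.0 and 101 on the vehicle arrays (-0.48 ± 0.12, SE). Tpst1, the Golgi enzyme that sulfates tyrosines of secreted proteins, had the smallest unadjusted p of the lower genes. It read 237, 235 and 214 in TsA, against 352, 317 and 362 in vehicle, with a difference of -0.56 ± 0.09 (SE); a second probe set near background, with a mean signal of 3.51, gave -0.19. Pdss2, which makes the side chain of coenzyme Q, was on the lower side at -0.43.

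The remaining genes of the higher group were Tafa2, a secreted chemokine-like brain protein (62.3, 52.4 and 72.4 in TsA, against 33.9, 34.5 and 40.4 in vehicle, 0.58 ± 0.13 SE, with 0.18 at another probe set), Dixdc1, a Wnt pathway protein (0.46), Chmp2b of the ESCRT-III complex (0.42), the cyclic AMP phosphodiesterase gene Pde8a (0.47), Bbs7 of the ciliary BBSome (0.49), Klhl7, a ubiquitin ligase adaptor (0.43), and Mpp7, a polarity scaffold (0.41). Chmp2b, Pde8a and Mpp7 each had a second probe set near 0 (0.06, 0.03 and 0.01). On the lower side were also Swsap1 of homologous recombination (-0.42) and Nat8f5, of an acetyltransferase family (-0.46).

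Immediate-early genes, which follow recent neuronal activity, did not separate as a group. The median over 26 genes was -0.08, with 19 (73.1%) lower in TsA, beside 59% of all genes. The TsA arrays were all lower in 2 (7.69%), beside 8.98% of all genes. Egr1, the brightest, read 2071, 2149 and 2068 on the TsA arrays, against 2092, 1973 and 2447 on the vehicle arrays, with overlapping groups. Arc, the activity-regulated cytoskeletal protein, read 689.95, 783 and 807 in TsA, against 511, 673 and 849 in vehicle, with vehicle arrays on both sides of the TsA ones. The non-overlapping ones were Egr2, at 374, 356 and 315 in TsA, against 392, 388 and 437 in vehicle (-0.21 ± 0.09, SE), and Fosl2, at 22.6, 29.4 and 28.6 on the TsA arrays, against 32.3, 37.9 and 35.3 on the vehicle arrays (-0.26 ± 0.12 SE, with -0.12 at a second probe set). Both encode transcription factors. Fos, named after its values were seen as the best known member, read 449, 454 and 340.1 in TsA, against 402, 573 and 458 in vehicle. Homer1 read 1015, 683 and 858 in TsA, against 774, 577 and 689.9 in vehicle at its brightest probe set (0.31), and a dimmer one, also singled out after its values were seen, was non-overlapping at 216, 165 and 173 on the TsA arrays, against 142, 53.2 and 144 on the vehicle arrays (0.73). At 3 further Homer1 probe sets the groups overlapped (0.23, 0.21 and 0.24). Feedback genes of MAP kinase signalling had a median of -0.03 over 13 members with 0 non-overlapping, and Dusp1, a phosphatase that ends MAP kinase signals, read 712, 781 and 519 on the TsA arrays, against 308, 716 and 569.5 on the vehicle arrays, with vehicle array 1 far below the rest.

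Dopamine-related genes had a median of -0.06 over 18, with 13 (72.2%) lower in TsA, beside 59% of all genes. The 2 lower without overlap (11.1%) stand beside 8.98% of all genes. Gnal, the G protein subunit that couples dopamine D1 receptors to cyclase, read 80.8, 83.3 and 77.8 in TsA, against 90.5, 119 and 96.9 in vehicle. It was lower without overlap (-0.28 ± 0.11, SE), with -0.21 at a second probe set. Ddc, the decarboxylase that makes dopamine, was the other non-overlapping gene (30.3, 41.4 and 34.3 in TsA, against 41.8, 44.1 and 43.2 in vehicle). Neurotrophin genes had a median of 0.04 over 13, with 0 non-overlapping. Bdnf, the main activity-dependent neurotrophin, read 150.2, 112 and 132 on the TsA arrays, against 143, 110.4 and 103 on the vehicle arrays (0.13). Its dimmer probe set, noted after its values were seen, gave 28.2, 64.9 and 31.5 in TsA against 11.2, 16.6 and 30.3 in vehicle, an overlap of 1 array from each group.

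Several receptor subunit genes spread widely, and along the same order of arrays. Gria3, an AMPA receptor subunit, read 935, 664 and 986 in TsA, against 652, 369 and 566 in vehicle. All TsA arrays were higher, by 0.70 ± 0.22 (SE), and by 0.84 within the batch, while its dimmer probe set overlapped (0.51). Gria2, the subunit that makes AMPA receptors impermeable to calcium, read 762, 451 and 783 in TsA, against 681, 267 and 473 in vehicle, and Gabrb2, a GABA-A subunit singled out after its values were seen, 708, 362 and 793 on the TsA arrays, against 597, 188 and 256 on the vehicle arrays. In both, TsA array 2 and vehicle arrays 2 and 3 were the 3 low arrays, which are the 3 with positive scores on the first principal component, so the differences of 0.53 ± 0.33 (SE) and 0.90 ± 0.42 (SE) moved with that axis. The part of the axis in these differences was not tested. Over the 15 ionotropic glutamate receptor genes the median was 0.00 with 1 non-overlapping, and Grin1, the obligatory NMDA subunit, read 432, 527 and 490.1 in TsA, against 442, 494 and 524 in vehicle. Over 17 GABA genes the median was 0.10, 6 were lower in TsA, 0 were non-overlapping, and Gad1, the main enzyme of GABA synthesis, read 1333, 1369.7 and 1249 in TsA, against 1199.8, 1250.3 and 1239.96 in vehicle.

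Channel and synapse lists had medians near 0 whose sign moved with single arrays or with the batch. Within the batch the medians were -0.03 for potassium channels (23 of 39 below 0), -0.08 for presynaptic genes (17 of 24) and -0.10 for postsynaptic scaffolds (13 of 17). Over all genes 3.68% were higher and 8.98% lower without overlap. These shares were 5.13% and 2.56% for potassium channels and 11.1% and 3.7% for sodium, calcium and HCN channels. For presynaptic genes they were 8.33% and 0%, and for scaffolds 0% and 5.88%. Among 39 potassium channel genes (median 0.02), Kcna2, a delayed rectifier of axons, read 765, 702 and 829 on the TsA arrays, against 669, 568 and 607 on the vehicle arrays and its partner subunit Kcnab1 501, 481 and 494 in TsA, against 431, 335 and 407 in vehicle. Both were higher in TsA without overlap, by 0.31 ± 0.09 (SE) and 0.33 ± 0.10 (SE), but each had a dimmer probe set at 0.03 and -0.01. The leak channel gene Kcnk1 was lower without overlap (-0.22). Among 27 sodium, calcium and HCN channel genes (median 0.05, and -0.01 within the batch) Cacna2d3, an auxiliary calcium channel subunit, read 384, 375 and 399 in TsA, against 339.96, 302 and 315 in vehicle, Scn3b was higher by 0.14 and Cacng2 (stargazin, which carries AMPA receptors to the synapse) by 0.14, all without overlap. A dimmer Cacng2 probe set gave -0.07. Hcn3, a pacemaker channel gene, was lower without overlap (-0.23). Of 24 presynaptic genes (median 0.00), Snap25 of the vesicle fusion machinery and Napb, which helps take it apart again, were the non-overlapping ones, at 0.09 and 0.19. Among 17 scaffold genes (median -0.01) Shank1, a master scaffold, was lower without overlap, at 1294, 1301 and 1309.9 on the TsA arrays, against 1353, 1389.6 and 1529.6 on the vehicle arrays, with 0.08 at a dim probe set. Camk2a, a kinase of synaptic plasticity named after its values were seen, overlapped at 166, 267 and 169 in TsA, against 198, 375 and 360.4 in vehicle; its difference of -0.57 was not shared by 3 dimmer probe sets (-0.15, -0.19 and 0.17).

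Most enzymes of cholesterol synthesis had lower means in TsA. This pathway runs from acetyl-CoA through mevalonate and squalene to cholesterol, which the brain makes for itself, largely in glia. Of 17 genes measured, 16 had the lower mean in TsA, the median was -0.15 and 5 (29.4%) were lower without overlap, beside 8.98% of all genes and 11.6% of the 3544 genes with a mean signal of at least 200. Msmo1, a sterol demethylating oxidase, read 878, 843 and 819 in TsA, against 949, 953 and 935 in vehicle. All TsA arrays lay below the vehicle arrays, with a difference of -0.16 ± 0.06 (SE). Lss, which closes squalene epoxide into the first sterol, read 75.3, 82.2 and 77.1 on the TsA arrays, against 91.4, 104 and 115 on the vehicle arrays (-0.34 ± 0.11, SE), and its second probe set, also non-overlapping, gave -0.36. Fdps, which makes farnesyl diphosphate, read 571, 552 and 502 in TsA, against 618, 719 and 589 in vehicle (-0.23 ± 0.10, SE). Mvk, the mevalonate kinase gene, read 72.0, 92.9 and 85.8 in TsA, against 93.5, 127 and 106 in vehicle (-0.32 ± 0.13, SE), and Dhcr7, which makes the last step to cholesterol, 179, 146 and 146 on the TsA arrays, against 182, 205 and 187 on the vehicle arrays (-0.27 ± 0.10, SE). Idi1, the isomerase of the pathway, was the member with the higher mean in TsA. It was singled out after its values were seen and read 255, 189.8 and 226 in TsA, against 259, 124 and 164 in vehicle, low on the same 3 arrays as Gabrb2. The list median was -0.13 within the batch, -0.12 without vehicle array 2 and between -0.19 and -0.11 with any 1 array left out, and 16 of 17 were below 0 without vehicle array 2. Of the regulators and transporters, 10 of 12 were lower (median -0.08), with Srebf2, the main transcription factor of the pathway, at -0.16 (0.14 at a probe set near background) and Insig1, its feedback inhibitor, at -0.11, both with overlap, and Abca1 on the higher side as above. Nr1h3, the sterol-sensing receptor LXR alpha, was lower without overlap but dim (7.34, 7.49 and 7.26 in TsA, against 8.71, 14.6 and 11.1 in vehicle).

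Most mitochondrial and ribosomal protein genes had lower means in TsA, by small amounts. Of 72 mitochondrial ribosome genes, 61 had the lower mean, the median was -0.15, and 23 (31.9%) were lower and 1 higher without overlap, beside 8.98% and 3.68% of all genes and 11.6% and 3.61% of genes with a signal of at least 200. Mrpl20 of the large subunit read 403, 376 and 369 on the TsA arrays, against 410.2, 476 and 469.95 on the vehicle arrays (-0.23 ± 0.09, SE), and Mrps18a of the small subunit 303, 309 and 317 in TsA, against 368, 416 and 334 in vehicle (-0.25 ± 0.09, SE). The gaps are narrow: in Mrpl36 the nearest arrays were 248 in TsA and 249.8 in vehicle. Mrpl33 was the non-overlapping member on the higher side (0.13). Of 68 genes of oxidative phosphorylation 59 were lower (median -0.12) and 20 (29.4%) lower without overlap. Ndufa13 of complex I read 908, 958 and 907 in TsA, against 1011, 1146 and 1027 in vehicle (-0.19 ± 0.07, SE), Cox5b of cytochrome oxidase 1373, 1425 and 1471 on the TsA arrays, against 1555, 2023 and 1593 on the vehicle arrays (-0.26 ± 0.11, SE) and Atp5f1d of the ATP synthase 1111, 1169.9 and 1133 in TsA, against 1219, 1393 and 1201 in vehicle (-0.15). Of 41 cytosolic ribosome genes 35 were lower (median -0.10) and 11 (26.8%) lower without overlap, among them Rps3 at 1626, 1657 and 1689 in TsA, against 1784, 2069 and 1845 in vehicle (-0.19 ± 0.07, SE) and Rpl37a at 2593, 2517 and 2491 on the TsA arrays, against 2908, 2864 and 2768 on the vehicle arrays (-0.17 ± 0.06, SE).

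Vehicle array 2 was the highest array in these 3 lists. Its median level stood 0.19, 0.19 and 0.13 above the 6-array mean in the mitochondrial ribosome, oxidative phosphorylation and cytosolic ribosome lists, where the TsA arrays stood at -0.10 to -0.03 and the other vehicle arrays at -0.02 to 0.03. Without vehicle array 2 the medians were -0.08, -0.05 and -0.06, beside -0.01 over all genes, and 53 of 72, 55 of 68 and 35 of 41 genes were below 0. All 3 medians kept their sign without that array. The part of the array in the 6-array medians was not tested.

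**Figure D3:**
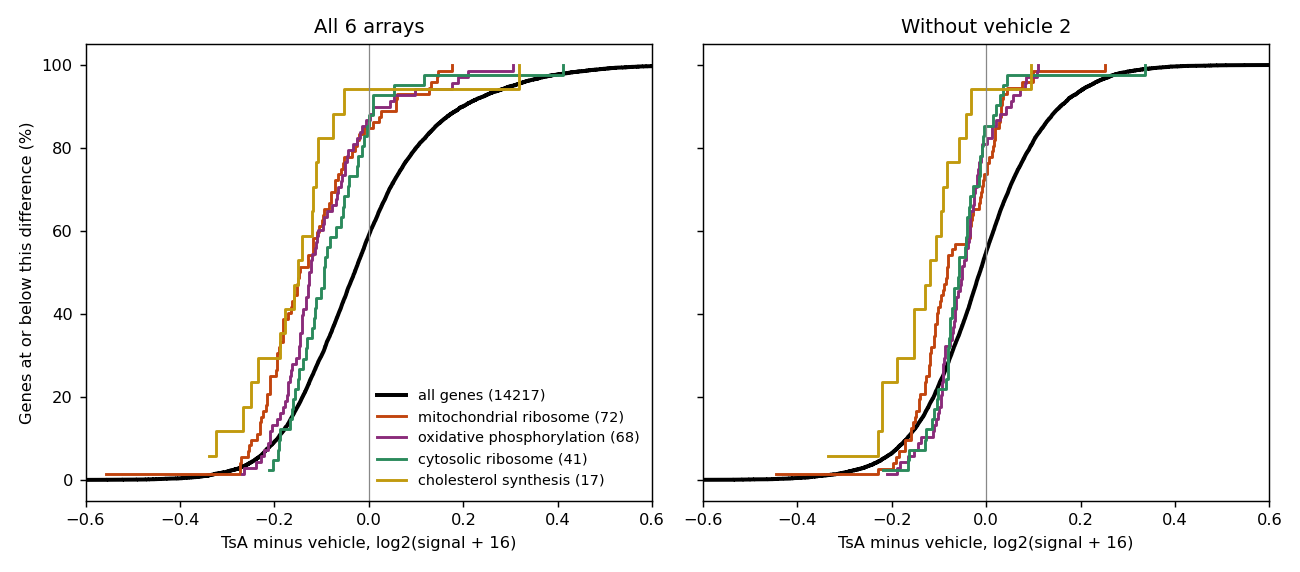
Cumulative share of genes (%) against the TsA minus vehicle difference on log2(signal + 16), for all 14217 genes (black) and for 4 lists, with all 6 arrays on the left and without vehicle array 2 on the right. At their medians the curves of the 4 lists lie left of all genes on the left panel. On the right the mitochondrial and ribosomal curves move closer to all genes, with medians of -0.08, -0.05 and -0.06 against -0.01, and cholesterol synthesis stays near -0.12.

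Of 31 nucleolar and ribosome assembly genes 21 were lower (median -0.07, and -0.03 without vehicle array 2), 6 of them (19.4%) and 1 higher gene (3.23%) without overlap, beside 8.98% and 3.68% of all genes. Beside Dkc1, its partner in the H/ACA particle Nhp2 read 306, 299.8 and 294 in TsA, against 367, 432 and 358 in vehicle (-0.34 ± 0.09, SE), whereas the partner Nop10 overlapped at -0.07. Ddx31, a helicase, was lower without overlap (-0.40), as was Polr1c, a subunit of RNA polymerases I and III (-0.25), while Utp14a of the small subunit processome was higher by 0.31. Of 31 proteasome genes 22 were lower (median -0.08, and -0.04 without vehicle array 2). Without overlap 3 proteasome genes (9.68%) were lower and 1 (3.23%) higher, near the 8.98% and 3.68% of all genes. Psmb3, a core subunit, and Psmd9 and Psmd13, of the regulatory particle and its assembly, were the lower ones (-0.21, -0.26 and -0.23). Psmd1, a regulatory scaffold subunit, was non-overlapping on the higher side at 199, 213 and 221 in TsA, against 176, 155 and 166 in vehicle (0.32 ± 0.09, SE). Glycolysis genes had a median of -0.06, and -0.01 without vehicle array 2. Heat shock genes had a median of 0.01 over 19 but 0.14 within the batch, where TsA array 1 was the highest array of the list, at 0.13 above the 6-array mean; Bag3, a co-chaperone, was non-overlapping at -0.16. Genes of endoplasmic reticulum stress likewise stood at -0.03, and at 0.10 within the batch.

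**Figure D4:**
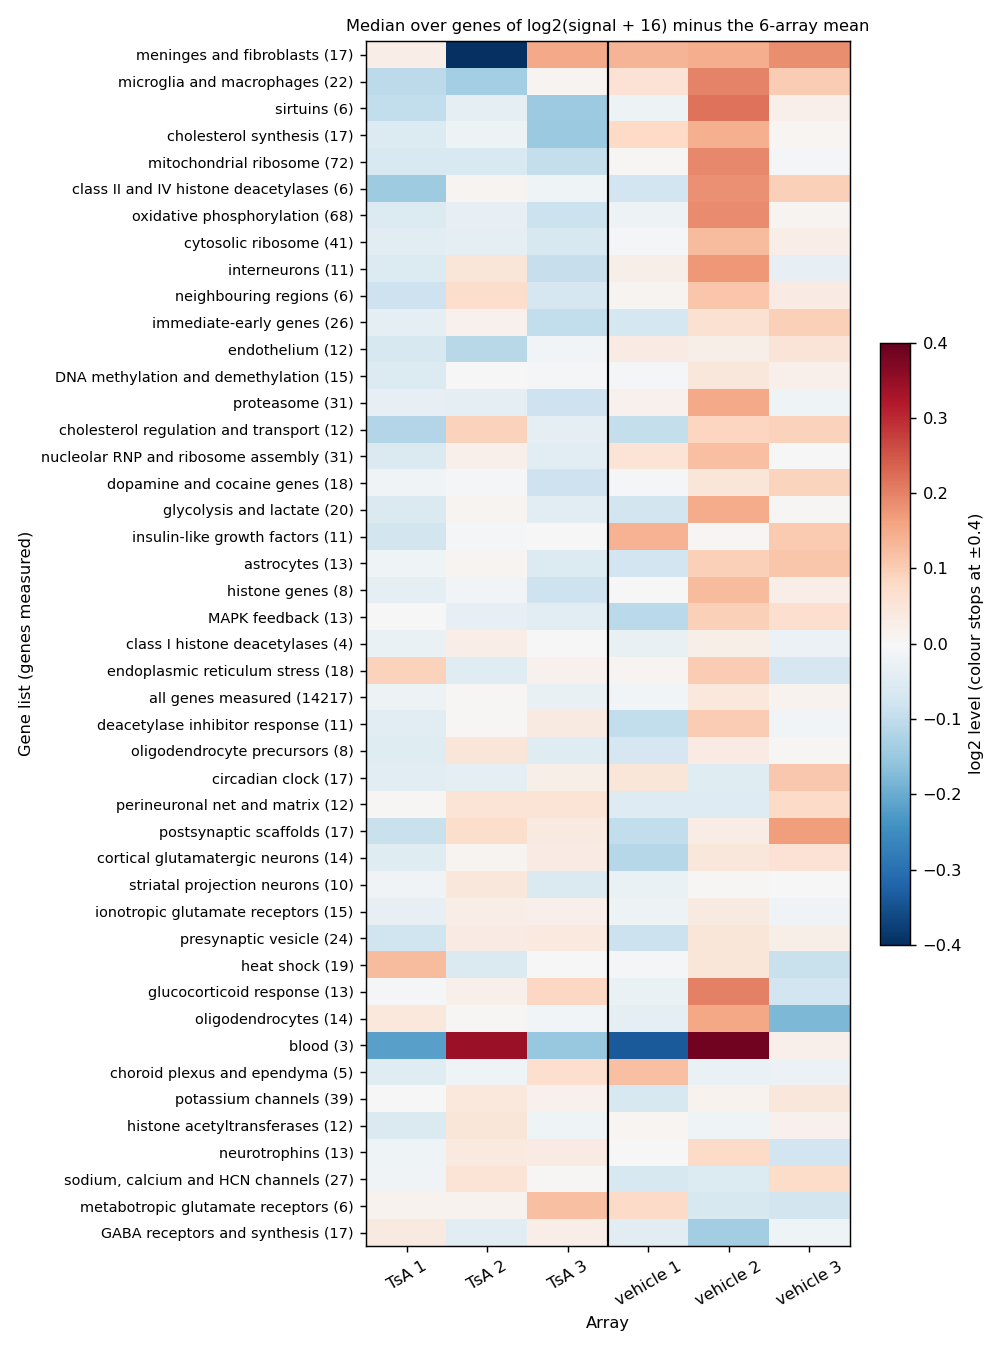
Each row is a gene list, ordered by its TsA minus vehicle median, and each column an array, with TsA arrays left of vehicle arrays. Colour gives the median over the list's genes of log2(signal + 16) minus the 6-array mean. Vehicle array 2 is the red column in most of the upper rows, TsA array 2 is the dark blue cell of the meningeal list, at -0.69, and the blood markers are highest on TsA array 2 and vehicle array 2.

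Markers of other cell types were read as a check on the dissection. In bulk tissue fewer cells of a type and less RNA per cell cannot be told apart. Meningeal and fibroblast genes, which come from the membranes over the cortex, had the lowest median of all 44 lists, -0.30. Of these genes 13 of 17 (76.5%) were lower in TsA, beside 59% of all genes, and 1 array lay far below the rest. Their median level was 0.03, -0.69 and 0.15 on the TsA arrays, against 0.14, 0.15 and 0.19 on the vehicle arrays. Igfbp2, a meningeal IGF binding protein, read 350.4, 156 and 335 on the TsA arrays, against 344, 373 and 379.5 on the vehicle arrays, Igf2, the growth factor, 294, 133 and 268 in TsA, against 291, 288 and 321 in vehicle, and Col1a2, a collagen chain, 109, 53.5 and 128 in TsA, against 123, 141 and 133 in vehicle. TsA array 2 was the low array in all 3, and the other TsA arrays lay near the vehicle arrays. Without TsA array 2 the median was -0.09. Slc6a20a, an amino acid transporter of the meninges, was 1 of 4 genes lower on all 3 TsA arrays, at 113, 63.0 and 127 on the TsA arrays, against 145, 132 and 148 on the vehicle arrays, beside Bgn, Fmod and Igfbp6. Those 4 are 23.5% of the list, beside 8.98% of all genes. Summed over the 17 genes, the signal was 1760, 854 and 1770 in TsA, against 1766, 1666 and 1815 in vehicle.

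Most microglial genes had lower means in TsA, and leaving out any 1 array left the median below 0. Of 22 genes, 17 had the lower mean, the median was -0.18 and 5 (22.7%) were non-overlapping, all lower, beside 59% of all genes with the lower mean and 8.98% lower without overlap. C1qb, a chain of complement C1q that microglia make, read 116, 138 and 149.8 in TsA, against 159, 188 and 180.4 in vehicle (-0.35 ± 0.11, SE), and the sister chain gene C1qa read 263, 278 and 333 on the TsA arrays, against 343, 418 and 349.6 on the vehicle arrays (-0.33 ± 0.12, SE). Aif1 (Iba1), the usual microglial stain, read 91.7, 82.2 and 90.5 in TsA, against 107, 96.3 and 109 in vehicle, and Lyz2, lysozyme, 464, 531 and 529.6 in TsA, against 554, 548 and 592 in vehicle. Cd74, the invariant chain of MHC class II, read 64.9, 31.9 and 57.3 on the TsA arrays, against 69.7, 79.9 and 76.0 on the vehicle arrays, with TsA array 2 the lowest as in the meningeal genes, and its difference was -0.17 within the batch. The list median was -0.16 within the batch and lay between -0.22 and -0.14 with any 1 array left out. Csf1r, the growth factor receptor that microglia need, overlapped at 187, 241 and 213 in TsA, against 191, 269.6 and 243 in vehicle. Summed over the list, the signal was 3234, 3496 and 3774 in TsA, against 3568, 4167 and 4005 in vehicle, with overlap between the groups.

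**Figure D5:**
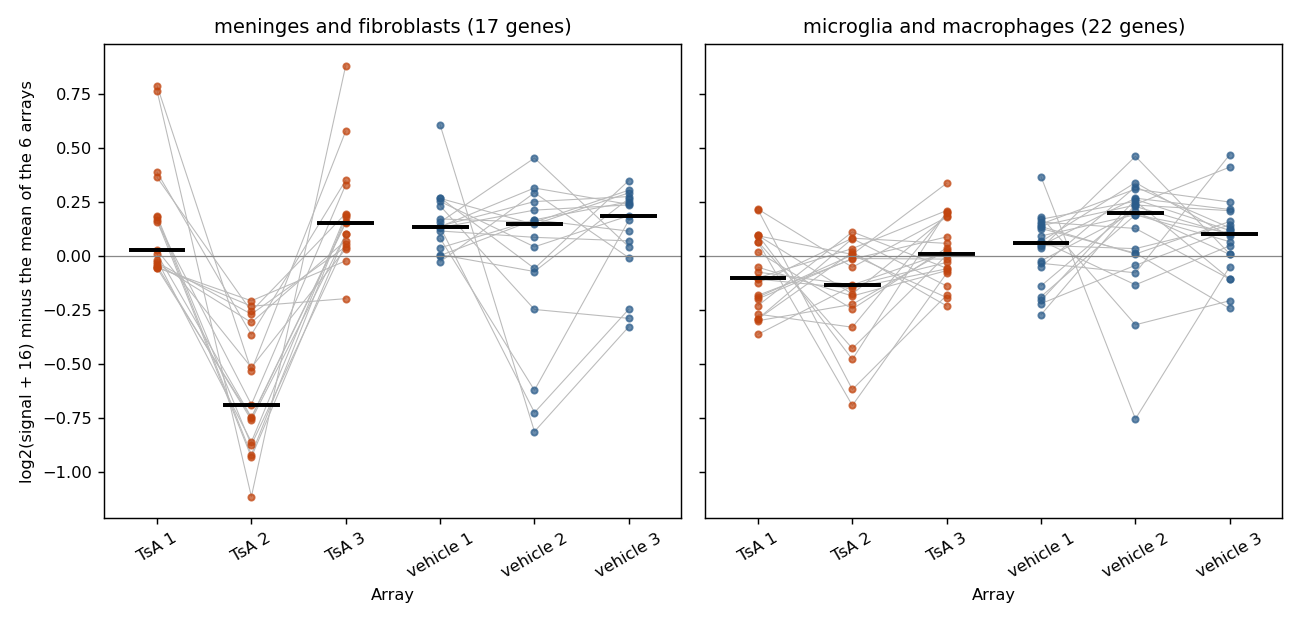
Points are genes, placed by log2(signal + 16) minus the 6-array mean on each array, with the median as a black bar and TsA arrays (orange) left of vehicle arrays (blue). In the left panel (17 meningeal and fibroblast genes) TsA array 2 stands at -0.69 and the other 5 medians between 0.03 and 0.19. In the right panel (22 microglial genes) the TsA medians run from -0.14 to 0.01 and the vehicle medians from 0.06 to 0.20.

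Of 12 endothelial genes, 4 (33.3%) were lower without overlap, beside 8.98% of all genes (median -0.08), among them the tight junction gene Cldn5 at 381, 381 and 404 on the TsA arrays, against 428, 487 and 419.5 on the vehicle arrays. Astrocyte genes had a median of -0.05, with Ntsr2, a neurotensin receptor of astrocytes, non-overlapping at 1136, 1164 and 1130.1 in TsA, against 1178, 1406 and 1417 in vehicle (-0.21 ± 0.09, SE) and Gfap, the astrocytic filament protein, overlapping at 1117, 1234 and 1208 in TsA, against 1227, 1501 and 1515 in vehicle. Medians were 0.01 for oligodendrocytes, -0.03 for their precursors, 0.00 for cortical glutamatergic neurons and -0.09 for interneurons. With 1 array left out the oligodendrocyte median ran from -0.07 without vehicle array 3 to 0.14 without vehicle array 2, and the interneuron median was 0.00 without TsA array 3. Of the cortical neuron genes Fezf2, which sets the fate of deep-layer projection neurons, was lower without overlap (150.2, 144 and 149.7 on the TsA arrays, against 174, 203 and 159 on the vehicle arrays, -0.24). Haemoglobin and Alas2, markers of blood, were highest on TsA array 2 and vehicle array 2, as for Hbb at 1953, 2803 and 2042 in TsA, against 1795, 2975 and 2303 in vehicle.

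The same comparison in the nucleus accumbens, 3 TsA against 3 vehicle arrays, was used to ask whether the cortex differed from it. All 3 accumbens TsA arrays were washed with vehicle array 3 and apart from vehicle arrays 1 and 2, so the accumbens values are uneven in wash batch as well. Cortex TsA arrays 2 and 3 shared a wash batch with accumbens vehicle arrays 1 and 2. Opposite TsA differences in the cortex and the accumbens therefore cannot be told apart from a shift of that batch. With wash batch as a block the interaction also gave 0 calls, with a smallest adjusted p of 0.116 in limma. Limma's interaction over the 12 arrays called 0 of 31042 probe sets (0%), with 1216 at an unadjusted p under 0.05 and a smallest adjusted p of 0.908. Some list medians that were below 0 in the cortex were above 0 in the accumbens. They were -0.15 in the cortex beside 0.04 in the accumbens for cholesterol synthesis, -0.15 beside 0.05 for the mitochondrial ribosome, and -0.18 beside 0.06 for microglia. The median over all genes measured changed sign in the same way, at -0.03 in the cortex beside 0.01 in the accumbens. Of all genes 59% were below 0 in the cortex, beside 45.3% in the accumbens. Dkc1 stood at -0.78 in the cortex beside 0.38 in the accumbens, Tra2a at 0.58 beside -0.34, and Mef2c at 0.54 beside 0.51. The difference between structures was not called for any of these genes.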

How the data were processed

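Signals of 31099 probe sets per array were deposited as linear intensity values, made with GCOS 1.4 and MAS5 per the submitters' processing notes. The mean over probe sets with the top and bottom 2% trimmed was 100.03 on each array, so the deposited signals were already scaled. Here 57 control probe sets were left out and log2(signal + 16) was fitted with limma 3.58.1 (eBayes with trend, R 4.3.3), adjusted by Benjamini-Hochberg over 31042 probe sets with a threshold of 0.05. Groups came from the sample titles, and wash batch from the arrays' run records. The platform annotation gave 1 symbol to 20826 probe sets (14217 genes), several to 436 and none to 9780. Of 44 gene lists (773 genes), each gene was read at its brightest probe set; 109 listed symbols were not analysed here. Genes were named by rule: the 15 with the smallest p in each direction, with 1 symbol, non-overlapping groups, a difference of at least 0.4 and a mean signal above the lowest 40% (15.6). Other probe sets are given where they have the other sign or under 0.5 or over 2 times the size. In lists of up to 16 genes any member could be named, and in longer ones the non-overlapping and the 5 brightest. The comparison and the lists were chosen with earlier results of these data known. The number of arrays limits the precision. Other pseudocounts, a filter, normalizations, array weights, blocks and leaving out each array were tried. Scripts were tested on simulated data (Python 3.11.15, numpy 2.4.6, pandas 2.3.3, matplotlib 3.10.9).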

Additional observations from a re-analysis of the deposited data

How the results depend on the processing

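Limma called 0 probe sets in the cortex under every alternative run, with a smallest adjusted p of 0.186 to 0.96 when 1 array was left out, 0.282 with array weights, 0.906 with wash batch as a block, 0.211 with all 12 arrays in the fit and 0.639 without the lowest 40% of signals. The replicate block also gave 0 calls (smallest adjusted p 0.458, with 3158 probe sets at an unadjusted p under 0.05). Same-numbered arrays deviated together with correlations of 0.341, 0.482 and -0.116, so the numbers were not taken as pairing. All TsA arrays lay above all vehicle arrays in 719 probe sets, against 1262, when the lowest 40% were left out, a setting that tests fewer probe sets. Between 25 and 37 of the 44 lists had a median below 0, against 32 with every array, and 25 without vehicle array 2. Of the list medians, 579 alternatives moved them by less than the spread between arrays and 37 by more. The 579 include settings that cannot move a median. The replicate block leaves every list median unchanged, as does the filter for lists wholly above it. The 30 named genes kept their direction in all 480, but they had been picked for non-overlapping groups. Leaving out an array, changing the pseudocount, weighting arrays or blocking on wash batch cannot reverse such a gene. The replicate block, the filter, all 12 arrays in the fit and a fit without the trend leave its difference unchanged by construction. The count of 480 therefore does not show that the differences of the named genes are stable. The interaction with the accumbens stayed at 0 calls, with a smallest adjusted p of 0.0954 to 1. Dim probe sets, near the added 16, limit what can be read of weakly expressed genes.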

Other observations

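Stress and clock genes outside the comparisons above showed small differences. In the endoplasmic reticulum stress list Dnajc3, a co-chaperone that restrains the kinase PERK, was higher without overlap (0.20), and Xbp1, the transcription factor spliced on unfolded protein stress, was lower without overlap (-0.15). In the circadian list (median -0.02 over 17 genes) Per2, a repressor of the clock, was lower without overlap (-0.23). Glucocorticoid response genes had a median of 0.01 over 13 with 0 non-overlapping, and genes of perineuronal nets, which wrap inhibitory neurons, had a median of -0.01 over 12, with Tnr the non-overlapping one on the higher side. Metabotropic glutamate receptor genes had a median of 0.07 over 6, and Grm7, a presynaptic receptor gene, was higher without overlap by 0.07.

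Promoters of the cholesterol synthesis genes were searched for the sterol element TCACNCCAC on both strands, in the 250 bases before the start in RefSeq's GRCr8 table. Of 17 genes 14 had an entry, and 0 of them held these letters, beside 268 of all 27457 promoters (0.976%). The separate RefSeq gene table gave the same start for 10 of these 14 genes. The result says only that these letters are not in this window.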
